A study of Mus musculus with 9 samples.

Results

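The 10 genes described here encode the protein kinase D family (Prkd1, Prkd2 and Prkd3), the class IIa histone deacetylases (Hdac4, Hdac5, Hdac7 and Hdac9) and 3 of the myocyte enhancer factor 2 transcription factors (Mef2a, Mef2c and Mef2d). They were chosen by symbol from a count table of 55487 genes, which holds all 10; 9 passed the filter on low counts that left 16955 genes to be tested. The set was put forward with the gene counts of these same 3 groups in view, so the fold changes and adjusted p values of its members describe these libraries and are not independent tests. RNA from MCEC, a line of mouse cardiac endothelial cells, was selected for poly-A and sequenced in 9 libraries that form 3 groups of 3. Cells were WT, carried a Zbtb46 knockdown (KD) or overexpressed Zbtb46 (OE). Zbtb46 encodes a zinc finger transcription factor of the BTB type. How the knockdown and the overexpression were made, whether a line is 1 clone and whether replicates are separate cultures are not given in the labels, and no library from cells with a control vector was analysed here. The p values therefore measure the spread between these libraries, which may be technical.

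Protein kinase D is switched on by diacylglycerol, which phospholipase C releases below receptors such as that for VEGF, and by protein kinase C. It phosphorylates class IIa histone deacetylases, which are then bound by 14-3-3 proteins and leave the nucleus. These deacetylases have little enzymatic activity of their own and repress genes by sitting on MEF2 factors together with corepressors, so their export frees MEF2 to activate its targets. In endothelial cells, class IIa deacetylases and MEF2 factors connect VEGF and flow to genes such as Nr4a1 and Klf2. Hdac7 is known for keeping vessels intact. The relay from the kinases to MEF2 runs through phosphorylation, which mRNA counts do not measure.

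Library totals lay between 39491828 and 55745849 counts. Ribosomal RNA features, with mitochondrial ones included, took 7.44% to 17.3% of them in WT, 9.55% to 11.96% in KD and 14.4% to 18.2% in OE. Zbtb46 mRNA stood at 13.7 ± 0.623 CPM in WT (CPM, counts put on one library size with TMM factors; mean ± SD, n = 3), 11.2 ± 0.537 CPM in KD and 191 ± 2.67 CPM in OE, so it fell by 17.8% in KD. The endothelial label was checked against 12 markers, of which 5 passed the filter. Cdh5, Emcn, Erg and Cldn5 had at most 3 counts in each WT library, and Pecam1 averaged 0.0578 ± 0.0502 CPM there. The 12 markers summed to 129 to 141 CPM in WT, 111 to 116 in KD and 92.3 to 101 in OE, most of it Eng at 125 ± 6.78, 108 ± 3.09 and 84.9 ± 3.03 CPM. The sum thus follows Eng and not each marker. Tek stood at 1.84 ± 0.114, 1.41 ± 0.0979 and 0.459 ± 0.120 CPM in the same order. Ecscr was highest in OE, at 4.73 ± 0.219, 1.51 ± 0.0572 and 8.18 ± 1.37 CPM, and Pecam1 averaged 0.150 ± 0.0689 CPM in OE. The 7 fibroblast markers summed to 8094 to 8959 CPM in WT, 8041 to 8168 in KD and 5074 to 5186 in OE, mostly Col1a1 and Col3a1, with Lum and Tcf21 at no more than 3 counts in any library. Col1a2 averaged 0.611 ± 0.0993 CPM in WT, beside Col1a1 at 5259 ± 290. The 6 smooth muscle and pericyte markers summed to 11.0 to 13.98, 6.44 to 6.76 and 3.80 to 4.69 CPM in the same order. The 6 cardiomyocyte markers summed to at most 2.17 CPM with Myh6 at 0 in all 9 libraries, and the 6 leukocyte markers to at most 0.879 CPM. The part of these differences in the results that follow was not tested, and in bulk RNA fewer cells of a type and less RNA per cell cannot be told apart.

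DNA around the starts of 4 members is shown because Prkd1 differed most between the groups, Prkd3 is its most abundant relative, and Hdac5 and Mef2a were the members with a MEF2 motif near their start. Each window of 300 bases is from RefSeq on GRCm38.p6 and runs from 250 bases before to 50 bases after the annotated start, on the minus strand for all 4, printed 5′ to 3′. Capitals mark GGGCGG, the GC box, read on either strand and overlaps included, and, in Hdac5 and Mef2a, the MEF2 motif, also searched on both strands. The windows are chr12:50649200-50649499 for Prkd1, chr17:79020767-79021066 for Prkd3, chr11:102230123-102230422 for Hdac5 and chr7:67372809-67373108 for Mef2a. The Prkd1 window lies outside the gene span in GENCODE M21, which starts at 50649098 on the minus strand. Those of Prkd3, Hdac5 and Mef2a hold the GENCODE start.
Prkd1: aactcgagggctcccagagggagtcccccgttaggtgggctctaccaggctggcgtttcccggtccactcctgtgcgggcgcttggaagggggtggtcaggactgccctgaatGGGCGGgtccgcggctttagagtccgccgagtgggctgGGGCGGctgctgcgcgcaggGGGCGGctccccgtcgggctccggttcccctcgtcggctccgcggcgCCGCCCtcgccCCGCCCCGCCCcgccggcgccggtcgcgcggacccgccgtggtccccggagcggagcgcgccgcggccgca
Prkd3: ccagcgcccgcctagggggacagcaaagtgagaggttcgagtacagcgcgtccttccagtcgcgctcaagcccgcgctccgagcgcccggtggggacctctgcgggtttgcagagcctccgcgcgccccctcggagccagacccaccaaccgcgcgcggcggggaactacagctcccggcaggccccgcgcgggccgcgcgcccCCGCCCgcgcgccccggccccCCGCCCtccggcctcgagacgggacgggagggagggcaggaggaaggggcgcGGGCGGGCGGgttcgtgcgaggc
Hdac5: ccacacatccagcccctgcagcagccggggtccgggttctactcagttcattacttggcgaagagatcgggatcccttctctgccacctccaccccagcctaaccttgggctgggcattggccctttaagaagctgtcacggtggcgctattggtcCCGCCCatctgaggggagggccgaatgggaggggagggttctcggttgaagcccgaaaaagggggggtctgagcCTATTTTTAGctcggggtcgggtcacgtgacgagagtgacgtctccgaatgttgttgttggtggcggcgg
Mef2a: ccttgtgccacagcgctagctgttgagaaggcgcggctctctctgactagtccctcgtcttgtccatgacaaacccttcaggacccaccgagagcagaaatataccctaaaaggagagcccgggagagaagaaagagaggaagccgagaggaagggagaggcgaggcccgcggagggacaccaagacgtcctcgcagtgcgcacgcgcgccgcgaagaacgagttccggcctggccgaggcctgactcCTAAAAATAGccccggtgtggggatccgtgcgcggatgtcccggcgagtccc

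RefSeq gave 18 such windows for the 10 members. The Prkd1 window held 43 CG dinucleotides, where 97.4% of the 32841 windows of all genes held fewer, and 6 matches to GGGCGG. The Prkd3 window printed above was alike in this, with 45 CG dinucleotides and 4 matches. GGGCGG was found in 35.7% of all windows and in 9 of the 18. The MEF2 motif was found in 3.19% of all windows and in 2 of the 18, those of Hdac5 and Mef2a. By contrast, the window at the most upstream start of Mef2c held 1 CG dinucleotide and that at the most upstream start of Hdac9 held 0. A match describes the letters only, and no binding was measured here.

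Prkd1, which encodes protein kinase D1, was the member whose level differed most. The gene (ENSMUSG00000002688) spans 50341231 to 50649098 on chromosome 12 (GRCm38, GENCODE M21, minus strand) and overlaps no other annotated gene. WT replicates 1, 2 and 3 had 125, 136 and 150 counts of it, which are 3.30, 2.29 and 3.36 CPM. All 3 KD libraries had 0 counts. OE replicates 1, 2 and 3 had 539, 632 and 441 counts, or 11.5, 12.8 and 9.80 CPM. No groups overlapped: KD lay at 0, WT above it, and every OE library above every WT library. Set against a floor of 3 counts per library (0.0655 CPM), Prkd1 was at least 45.5-fold lower in KD than in WT (edgeR adjusted p 1.81e-10). OE exceeded WT 3.85-fold, or 1.94 on the log2 scale (SE 0.21, edgeR adjusted p 1.91e-08), and was at least 173-fold above the KD floor. KD and OE are both set against the same WT libraries. Of the 16955 tested genes, Prkd1 was the 1 gene with 0 counts in each KD library and at least 100 in each WT library. That limit was picked after the values of Prkd1 were seen and lies under its lowest WT count of 125. By size of the fitted log2 difference Prkd1 did not rank first. For overexpression, 298 tested genes differed more from WT than Prkd1 did. For knockdown 3 genes did, and 1 gene differed more between the 2 modified groups. The 3 differences of Prkd1 passed with the same direction in each of the 17 alternatives that tested it. Requiring 10 counts in every library removed it. Prkd1 passed the filter through its WT and OE counts. With 0 counts in KD, its differences from KD were therefore bound to be found, and their p values and agreement add no support.

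**Figure D1:**
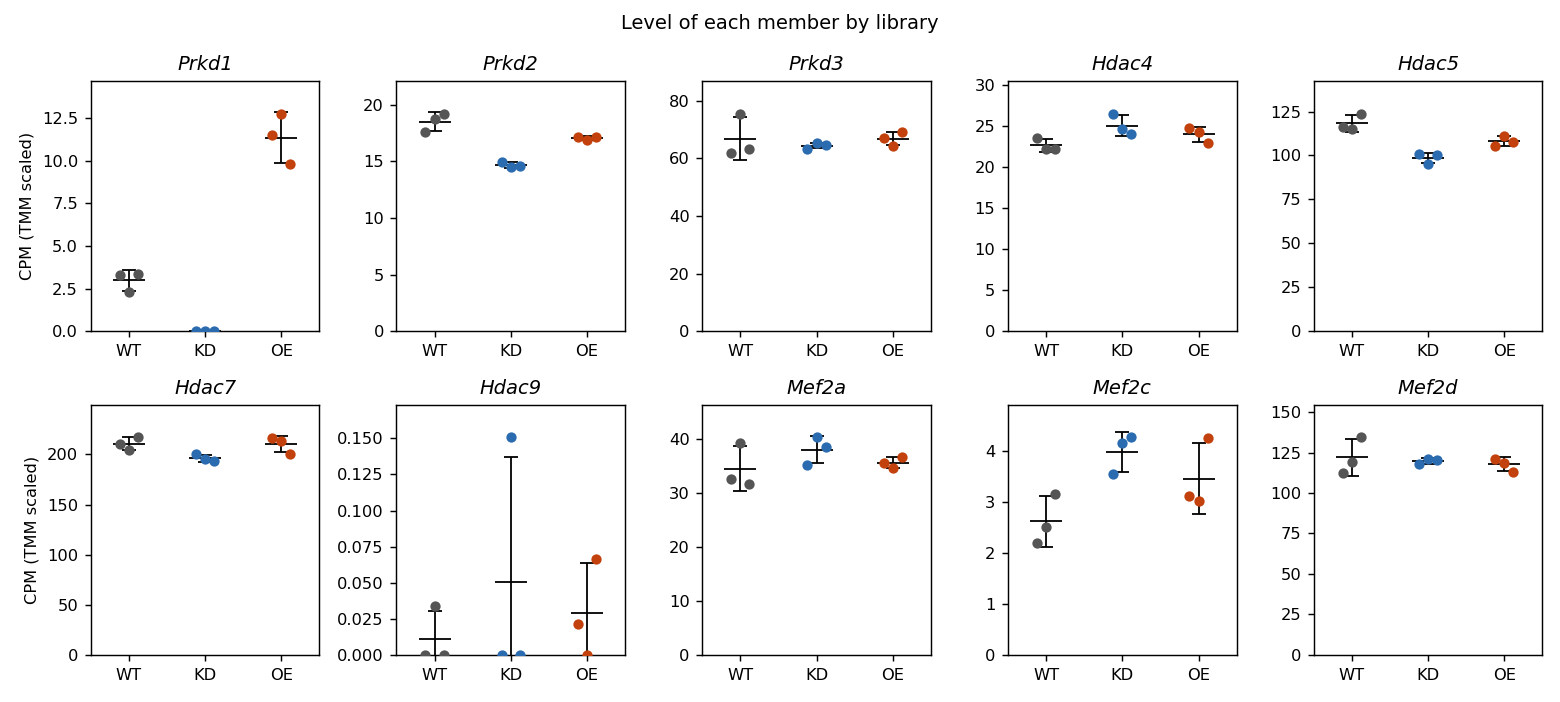
Level of each member in each library, in CPM (TMM scaled) on linear axes from 0, by group; points are libraries and bars show mean ± SD of 3. Prkd1 lies at 0 in KD, at 2.29 to 3.36 CPM in WT and at 9.80 to 12.8 CPM in OE. The other tested members differ by smaller folds, and KD lies apart from WT for Prkd2, Hdac4, Hdac5, Hdac7 and Mef2c.

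Within 2 Mb on either side of Prkd1, a distance picked after its values were seen, 16 other genes were tested. In KD 2 of them passed higher and 0 lower, beside 11.0% and 10.4% of all genes tested. In OE 2 passed higher and 1 lower, beside 17.0% and 19.5% of all genes tested. Strn3, which encodes a striatin of a phosphatase complex, was among those higher in both, at 0.28 (SE 0.075) on the log2 scale in KD and 0.17 (SE 0.074) in OE. Dtd2 was the gene lower in OE, at -0.67 (SE 0.16). The nearest tested gene, the pseudogene Gm7172, lay 484.5 kb away and had 0.971 ± 0.142 CPM in WT, 0.749 ± 0.228 in KD and 0.824 ± 0.125 in OE. Over the 79 genes tested in the 20 Mb window that holds Prkd1, the median log2 difference was 0.10 in KD and 0.11 in OE.

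**Figure D2:**
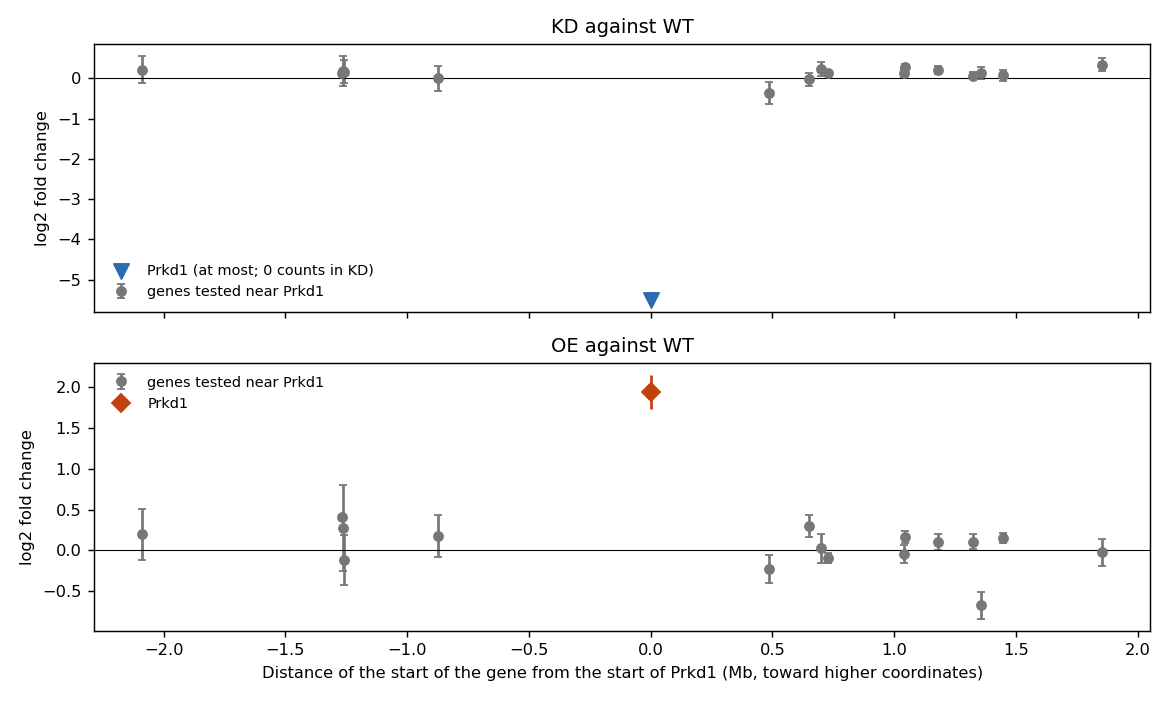
Log2 fold change of Prkd1 and of the 16 other tested genes within 2 Mb, against the distance of each gene's start from that of Prkd1 in Mb, in KD and OE against WT; error bars are SE, and the KD triangle of Prkd1 is an upper limit from the floor of 3 counts. Prkd1 stands at or under -5.51 in KD and at 1.94 in OE, and all 16 neighbours lie closer to 0 than Prkd1 in both.

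The other kinases of the family differed far less. Prkd2, known from immune and endothelial cells, had 17.6, 18.8 and 19.2 CPM in WT replicates 1, 2 and 3, 15.0, 14.5 and 14.6 CPM in KD and 17.2, 16.9 and 17.1 CPM in OE. All KD libraries lay below all others, and OE lay below WT without overlap. In KD, Prkd2 fell by 20.8% (log2 -0.34, SE 0.041, edgeR adjusted p 0.00178), which passed in all 18 alternatives. Its OE value of -0.12 (SE 0.040) did not pass (adjusted p 0.207). OE exceeded KD by 0.22 (SE 0.016, adjusted p 0.0207), a call lost in 7 of 18 alternatives, among them leaving out any 1 KD library or OE replicate 1. Prkd3 ranged over 61.9 to 75.5 CPM in WT, 63.4 to 65.3 in KD and 64.5 to 69.2 in OE, and all groups overlapped. Its log2 difference from WT was -0.056 in KD (limma-voom 95% interval -0.19 to 0.075) and -0.0031 in OE (-0.14 to 0.13).

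Levels per exon length (RPKM, CPM divided by the summed length of all annotated exons in kb) let the kinases be set beside each other, though exons that are not used lower a gene's value. In WT, Prkd3 stood at 6.07 ± 0.683 RPKM, Prkd2 at 3.67 ± 0.171 and Prkd1 at 0.816 ± 0.165 (SD, n = 3), with no overlap. Prkd1 made up 7.80 ± 1.92% of the family's summed RPKM in WT, 0% in KD and 24.7 ± 2.92% in OE. In OE it reached 3.11 ± 0.406 RPKM, and its range overlapped that of Prkd2 at 3.38 ± 0.0329. The family sum was 10.6 ± 0.607 RPKM in WT, 8.75 ± 0.0434 in KD and 12.6 ± 0.170 in OE, and these ranges did not overlap.

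**Figure D3:**
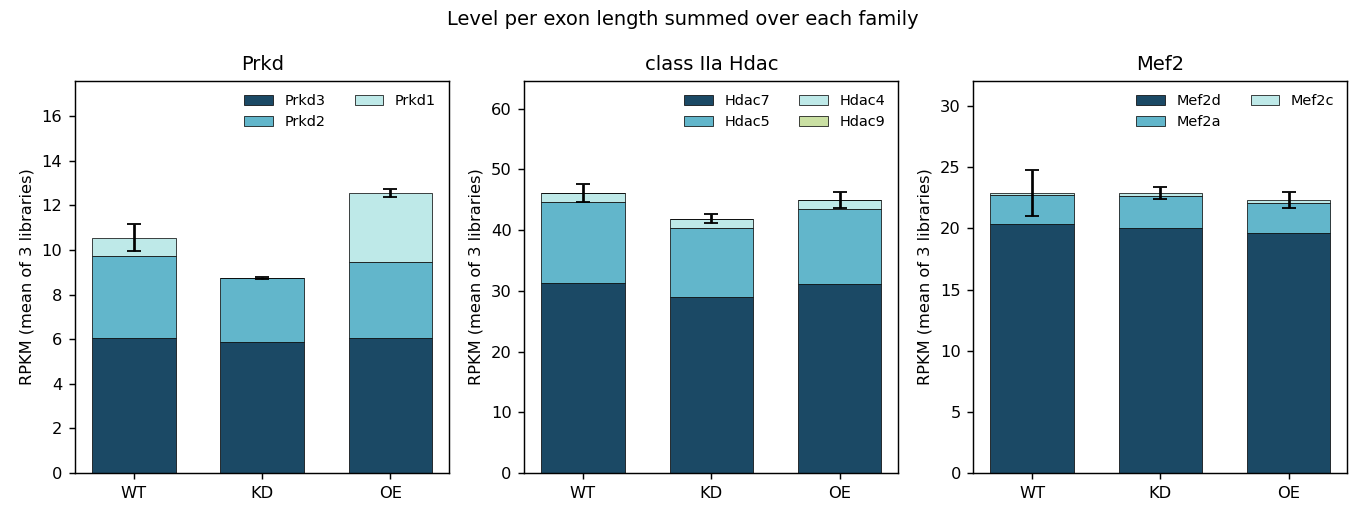
Mean RPKM of each member stacked within its family, by group, with error bars for the SD of the family sum over 3 libraries. The Prkd sum is lowest in KD, where Prkd1 is at 0, and highest in OE, where Prkd1 adds 3.11 RPKM, while the Mef2 sums lie between 22.3 and 22.9.

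Among the class IIa deacetylases, Hdac7 was the most abundant and Hdac5 was called lower than WT in both modified groups. Hdac5, studied mostly in heart and muscle, had 116, 115 and 124 CPM in WT replicates 1, 2 and 3, 101, 95.3 and 100.2 CPM in KD and 106, 111 and 108 CPM in OE. KD lay lowest, OE between and WT highest, without overlap. In KD, Hdac5 fell by 0.26 on the log2 scale (SE 0.042, edgeR adjusted p 0.000234), a call kept in all 18 alternatives. In OE it fell by 0.13 (SE 0.040, edgeR adjusted p 0.0280). That OE call was lost without WT replicate 3 (adjusted p 0.0669), OE replicate 1 (0.125) or OE replicate 3 (0.0788), and with the medians of 20 Mb windows subtracted (0.0644). OE exceeded KD by 0.13 (SE 0.033, adjusted p 0.0243), lost in 7 of 18 alternatives, among them leaving out KD replicate 1 or 2 or OE replicate 2 or 3.

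Hdac7, the class IIa enzyme best known from endothelium, had 205 to 217 CPM in WT, 193 to 200.1 in KD and 201 to 216 in OE. KD lay below both other groups without overlap, but neither its difference from WT (-0.10, SE 0.028, adjusted p 0.0875) nor that of OE from KD (0.099, SE 0.036, adjusted p 0.0643) passed. Without WT replicate 2, the KD difference of -0.12 passed with an adjusted p of 0.0278. The OE difference from KD passed in 4 of 18 alternatives, at adjusted p-values of 0.00928 with only the groups compared, 0.0296 without OE replicate 3, 0.0402 without WT replicate 3 and 0.0485 without WT replicate 2. The OE difference from WT was -0.0043 (limma-voom 95% interval -0.089 to 0.083). Hdac4, studied mostly in muscle, bone and brain, had 22.2 to 23.5 CPM in WT, 24.0 to 26.5 in KD and 23.0 to 24.8 in OE. Its KD libraries lay above those of WT by 0.15 (SE 0.051) without passing (adjusted p 0.129), and its OE value of 0.084 (SE 0.043) had an adjusted p of 0.358.

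Hdac9, known from muscle and vascular disease, was close to absent. For replicates 1, 2 and 3 the table lists 0, 2 and 0 counts in WT, 0, 6 and 0 in KD and 1, 0 and 3 in OE, so it was not tested and no fold is given. Per exon length the WT order was Hdac7 at 31.2 ± 0.902 RPKM, Hdac5 at 13.5 ± 0.550, Hdac4 at 1.43 ± 0.0491 and Hdac9 at 0.000764 ± 0.00132. The class summed to 46.1 ± 1.42 RPKM in WT, 41.9 ± 0.759 in KD and 45.0 ± 1.30 in OE, and KD did not overlap the others. Exons of Hdac4, Hdac7, Mef2a and Mef2d overlap a gene on the opposite strand (Gm26720, Slc48a1, Lysmd4 and 1700113A16Rik), and those of Hdac5 overlap the microRNA gene Mir8101 on its own strand. The use of strand in counting is not given in the sources used here, so reads of these pairs cannot be told apart.

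Among the MEF2 factors, the weakly expressed Mef2c was called higher in KD, while the more abundant Mef2d and Mef2a did not pass. Mef2c, known from heart, muscle, lymphoid and endothelial development, had 83, 149 and 141 counts in WT replicates 1, 2 and 3, or 2.19, 2.504 and 3.15 CPM. KD replicates 1, 2 and 3 stood at 3.54, 4.14 and 4.26 CPM and OE replicates at 3.11, 3.01 and 4.25 CPM. Every KD library lay above every WT library, and OE overlapped both. Mef2c rose by 0.60 on the log2 scale in KD (SE 0.17, edgeR adjusted p 0.0190). Its OE value was 0.40 (SE 0.22, adjusted p 0.0927). The KD call was lost without WT replicate 1 (adjusted p 0.0880), KD replicate 2 (0.0722) or KD replicate 3 (0.0859). Mef2c lies at 83504034 to 83667080 on chromosome 13, in a 20 Mb window whose 92 tested genes had medians of 0.14 in KD and -0.26 in OE. With window medians subtracted, Mef2c stood at 0.44 in KD (adjusted p 0.0992) and 0.69 in OE (adjusted p 0.00513), so that OE passed and KD did not. The OE value also passed without WT replicate 3, at 0.54 (adjusted p 0.0312).

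Mef2d, the main MEF2 transcript here, had 112 to 134 CPM in WT, 118 to 121 in KD and 113 to 121 in OE, and all groups overlapped. Its log2 difference was -0.025 in KD (limma-voom 95% interval -0.14 to 0.092) and -0.052 in OE (-0.16 to 0.065). Mef2a, widely expressed, had 31.8 to 39.3 CPM in WT, 35.3 to 40.4 in KD and 34.7 to 36.7 in OE, again with overlap. Its KD value of 0.14 (SE 0.11) did not pass (adjusted p 0.221), but without WT replicate 2, the highest of WT, it was 0.24 with an adjusted p of 0.00601. Its OE value was 0.043 (SE 0.099). In WT, Mef2d made up 88.9 ± 1.47% of the summed RPKM of the 3 factors, Mef2a 10.3 ± 1.53% and Mef2c 0.723 ± 0.0774%. The sum was 22.9 ± 1.85 RPKM in WT, 22.9 ± 0.487 in KD and 22.3 ± 0.632 in OE, with overlapping ranges. Mef2b, the fourth gene of the family, averaged 0.474 ± 0.0705 CPM in WT, 0.247 ± 0.160 in KD and 0.288 ± 0.179 in OE and did not pass against WT in either.

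**Figure D4:**
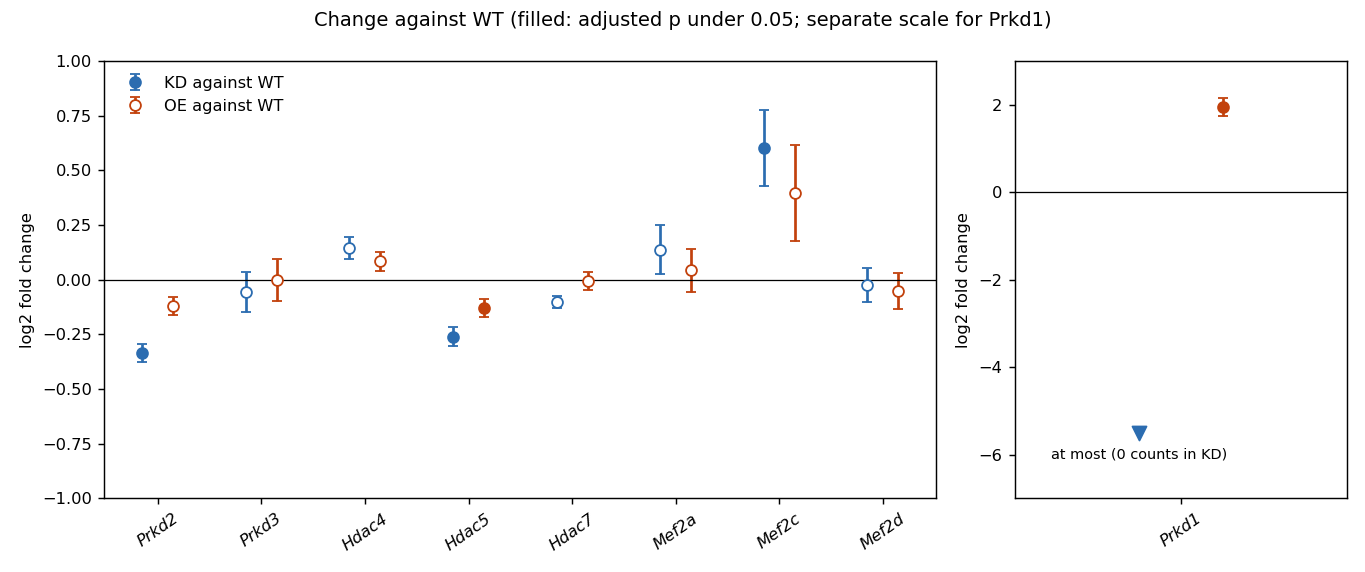
Log2 fold change of the 9 tested members in KD and in OE against the same WT libraries, with SE; filled symbols have an adjusted p under 0.05, and Prkd1 has its own axis, with its KD triangle an upper limit. Prkd2 and Hdac5 lie below 0 in both, Mef2c lies above 0 in both, and Prkd1 lies at or under -5.51 in KD and at 1.94 in OE.

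Counted over the set, 4 of the 9 tested members passed in KD against WT, where 21.3% of all tested genes passed: 1 higher (Mef2c), beside 11.0% of all genes, and 3 lower (Prkd1, Prkd2 and Hdac5), beside 10.4%. In OE against WT 2 passed, where 36.4% of all genes did: Prkd1 higher, beside 17.0%, and Hdac5 lower, beside 19.5%. Between OE and KD 3 passed, where 41.5% of all genes did, and all 3 were higher in OE (Prkd1, Prkd2 and Hdac5), beside 19.4% higher and 22.1% lower. In the test of any difference among the 3 groups 4 passed, where 47.7% of all genes did. KD and WT did not overlap for 6 members (34.7% of all genes), OE and WT for 3 (45.1%), and OE and KD for 4 (55.4%). Prkd1 passed the filter through its WT and OE counts, so with 0 counts in KD it had to differ. The median size of the log2 difference was 0.15 for the members and 0.16 for all genes in KD, and 0.084 against 0.22 in OE. Prkd1 was the 1 member that passed with at least a 2-fold difference, which 2.64% of all genes did for KD and 5.34% for OE, both set against WT, and 7.49% between OE and KD.

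Ordered by RPKM, Hdac7, Mef2d, Hdac5, Prkd3 and Prkd2 led in all 3 groups. Prkd1 was eighth in WT, between Hdac4 and Mef2c. In KD it was last, where its range overlapped that of Hdac9, and in OE sixth, where its range overlapped that of Prkd2 above it. All other neighbours in the 3 orders lay apart without overlap.

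Over the 9 libraries, the genes whose log2 CPM ran most like that of Prkd1 were Il22ra1 (Pearson r 0.998), Gas6 (0.997) and Inava (0.996). They were taken from 9712 tested genes that averaged 5 CPM or more, with predicted-gene symbols left out. Il22ra1, a receptor chain for interleukin-22, had 17.6 ± 0.959 CPM in WT, 7.12 ± 0.229 in KD and 24.1 ± 1.30 in OE. Gas6, a ligand of the TAM receptor kinases, had 12.1 ± 0.717 CPM in WT, 1.06 ± 0.118 in KD and 22.01 ± 0.660 in OE. Inava had 7.59 ± 0.228 CPM in WT, 3.73 ± 0.104 in KD and 9.91 ± 0.554 in OE. Since the 9 points come from 3 groups of libraries, the values describe a shared order of the groups, with KD lowest and OE highest.

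Genes around the relay were read from lists of textbook roles, and each list's counts are read beside the shares of all genes given above. Upstream of protein kinase D, 14 of 19 genes were tested, with 3 higher and 3 lower in KD and 4 higher and 4 lower in OE. The list medians were 0.043 and -0.034, beside medians over all genes of -0.0022 in KD and 0.0020 in OE. Kdr, the main VEGF receptor, went from 2.64 ± 0.252 CPM in WT to 1.401 ± 0.254 in KD (log2 -0.91, SE 0.16) and 1.77 ± 0.202 in OE (-0.58, SE 0.13). Both falls of Kdr passed, the OE call was lost in 3 of 18 alternatives (without WT replicate 1 or 2 or OE replicate 1, adjusted p up to 0.113), and OE against KD did not pass (0.33, SE 0.17, edgeR adjusted p 0.224). Plcb4, a phospholipase C, rose in KD from 13.8 ± 1.51 to 18.8 ± 0.517 CPM (0.45, SE 0.092). In OE, Plcb4 fell to 7.65 ± 0.919 CPM (-0.85, SE 0.13) and Prkcz, an atypical protein kinase C, rose from 5.14 ± 0.526 to 7.24 ± 0.567 CPM (0.49, SE 0.11). Prkcz lies in a window with an OE median of 0.30, and with window medians subtracted its value was 0.19 (adjusted p 0.276).

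Of the other kinases and phosphatases that act on class IIa deacetylases, 17 of 18 were tested, with 3 higher and 1 lower in KD and 4 higher and 6 lower in OE, and medians of 0.070 and -0.095. Camk1d, a calmodulin-dependent kinase, rose from 11.2 ± 1.35 CPM in WT to 14.3 ± 0.858 CPM under knockdown (0.35, SE 0.12) and to 20.2 ± 0.745 CPM under overexpression (0.85, SE 0.11). Its KD call was lost without WT replicate 1 (adjusted p 0.0547). Camk2b, another calmodulin-dependent kinase, stood at 1.57 ± 0.310 CPM in WT and was lower both in KD, at 0.941 ± 0.0669 CPM (-0.72, SE 0.17), and in OE, at 0.953 ± 0.0555 CPM (-0.71, SE 0.17), calls lost in 12 of 18 and 7 of 18 alternatives. Its 20 Mb window had medians of -0.038 in KD and -0.52 in OE, and with these subtracted Camk2b stood at -0.67 in KD (adjusted p 0.0619) and -0.21 in OE (adjusted p 0.575). All 7 genes for 14-3-3 proteins, which hold phosphorylated deacetylases in the cytoplasm, were tested, with 3 higher and 0 lower in KD and 2 higher and 1 lower in OE. Ywhah moved from 218 ± 8.26 CPM in WT up to 246 ± 8.36 CPM in KD (0.18, SE 0.042) and down to 178 ± 3.78 CPM in OE (-0.29, SE 0.036). Ywhaz rose from 406 ± 22.7 to 440.0 ± 15.1 CPM in OE (0.12, SE 0.055) with ranges that overlapped, a call lost in 12 of 18 alternatives.

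Of the 7 deacetylases outside class IIa 6 were tested, with 0 higher and 1 lower in KD and 2 higher and 1 lower in OE, and medians of -0.072 and 0.028. Hdac1, a class I enzyme of nuclear corepressor complexes, went from 109 ± 3.21 CPM in WT down to 79.1 ± 2.68 CPM in KD (-0.46, SE 0.037) and up to 144 ± 3.26 CPM in OE (0.41, SE 0.031). Its 20 Mb window had medians of -0.18 in KD and 0.35 in OE, and with window medians subtracted Hdac1 stood at -0.28 in KD (adjusted p 9.28e-05) and 0.073 in OE (adjusted p 0.220). Hdac10 fell in OE from 16.2 ± 0.934 to 12.9 ± 2.20 CPM (-0.32, SE 0.15), a call lost without OE replicate 3 (adjusted p 0.110). All 25 partners of the deacetylases and MEF2 factors were tested, with 4 higher and 3 lower in KD and 4 higher and 6 lower in OE, and medians of 0.038 and 0.0054. Nfatc1, a calcineurin target, rose in KD from 12.4 ± 1.13 to 15.7 ± 0.0945 CPM (0.34, SE 0.075), lost without WT replicate 1 (adjusted p 0.0524), and fell in OE to 9.25 ± 0.692 CPM (-0.42, SE 0.098). Its weakly expressed relative Nfatc4 fell in KD from 0.336 ± 0.0599 to 0.117 ± 0.0344 CPM (-1.53, SE 0.22), a call lost in 15 of 17 alternatives. Nfatc4 averaged 0.331 ± 0.0533 CPM in OE. In OE, Rfxank, whose product binds class IIa deacetylases, rose from 7.74 ± 0.181 to 10.1 ± 0.196 CPM (0.38, SE 0.025). Map2k5, the kinase above the MEF2 kinase Mapk7, fell from 30.8 ± 4.46 to 20.9 ± 0.896 CPM (-0.56, SE 0.12), and with window medians subtracted it stood at -0.23 (adjusted p 0.0567).

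Of 17 endothelial genes linked to this relay 14 were tested, with 1 higher and 4 lower in KD and 2 higher and 1 lower in OE, and medians of -0.34 and -0.062. The KD median also counts weakly expressed genes that did not pass. These include Egr3 (0.414 ± 0.0492 CPM in WT and 0.164 ± 0.0847 in KD), Mmp10 (0.310 ± 0.162 and 0.214 ± 0.0981) and Nos3 (0.482 ± 0.209 and 0.380 ± 0.115). Rcan1 (21.8 ± 0.376 and 21.1 ± 0.431) and Edn1 (39.2 ± 6.36 and 40.5 ± 2.49), which are better expressed, did not pass either. Klf4, a flow-responsive transcription factor, rose from 41.2 ± 2.36 CPM in WT to 64.8 ± 2.52 under knockdown (0.65, SE 0.058) and 46.6 ± 0.683 under overexpression (0.18, SE 0.050). The OE call of Klf4 was lost in 3 of 18 alternatives, without WT replicate 1 or OE replicate 2 and with library totals in place of TMM scaling (adjusted p 0.300). Egr1, an immediate-early factor, had 33.2, 49.98 and 41.5 CPM in WT replicates 1, 2 and 3 and 14.5, 16.7 and 16.8 in KD (log2 -1.38, SE 0.18, edgeR adjusted p 0.00600). The other genes lower in KD, named after their values were seen, were Nr4a1, an orphan nuclear receptor, at 11.7 ± 1.82 CPM in WT and 6.97 ± 0.750 in KD (-0.75, SE 0.15), Jun, an AP-1 subunit, at 44.8 ± 4.51 and 31.4 ± 1.55 (-0.52, SE 0.095), and Pdgfb, a growth factor, at 33.3 ± 0.521 and 26.8 ± 1.34 (-0.31, SE 0.044). For all 4 genes lower in KD, the KD libraries lay below the WT libraries without overlap, and the calls held in all 18 alternatives. The OE means were 31.3 ± 8.49 CPM for Egr1, 9.62 ± 1.48 for Nr4a1, 43.8 ± 1.11 for Jun and 31.7 ± 1.35 for Pdgfb. These lay below the WT means, and the 4 genes did not pass in OE against WT. Klf2, the flow-responsive relative of Klf4, had 9.80 ± 0.183 CPM in WT, 10.1 ± 0.771 in KD and 9.36 ± 0.920 in OE and did not pass. In OE, Nr4a2 rose from 1.43 ± 0.0461 to 2.22 ± 0.377 CPM (0.64, SE 0.14), lost in 7 of 18 alternatives, and Slit2, a guidance ligand, fell from 108 ± 10.8 to 86.8 ± 5.48 CPM (-0.31, SE 0.098).

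Genes that MEF2 drives in muscle were mostly near 0: of 11, the intermediate filament gene Des was tested, and it did not pass. All 8 other substrates of protein kinase D were tested, with 4 higher and 1 lower in KD and 1 higher and 3 lower in OE, and medians of 0.12 and -0.14. Cttn, which encodes the actin regulator cortactin, fell in KD from 194 ± 5.64 to 127 ± 4.83 CPM (-0.62, SE 0.040). Col4a3bp, which encodes the ceramide carrier CERT, rose in KD from 61.7 ± 5.36 to 84.1 ± 2.06 CPM (0.45, SE 0.075) and fell in OE to 40.3 ± 1.55 CPM (-0.61, SE 0.079). Its window had medians of 0.14 and -0.26, and with these subtracted it stood at 0.29 in KD and -0.31 in OE. Osbp, which encodes an oxysterol-binding protein, rose from 158 ± 2.25 CPM in WT to 188 ± 1.83 under knockdown (0.25, SE 0.014) and 176 ± 5.71 under overexpression (0.16, SE 0.029), and neither group overlapped WT. With library totals in place of TMM scaling, the OE call of Osbp was lost (adjusted p 0.277), as were the KD calls of Camk1d (0.0558), Ywhah (0.166) and Nfatc1 (0.0559). Kidins220, named after its values were seen, encodes a scaffold that was described as a substrate of this kinase and stood at 97.9 ± 7.21 CPM in WT, higher in KD at 123 ± 1.65 CPM (0.32, SE 0.063) and lower in OE at 77.8 ± 2.51 CPM (-0.33, SE 0.068).

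**Figure D5:**
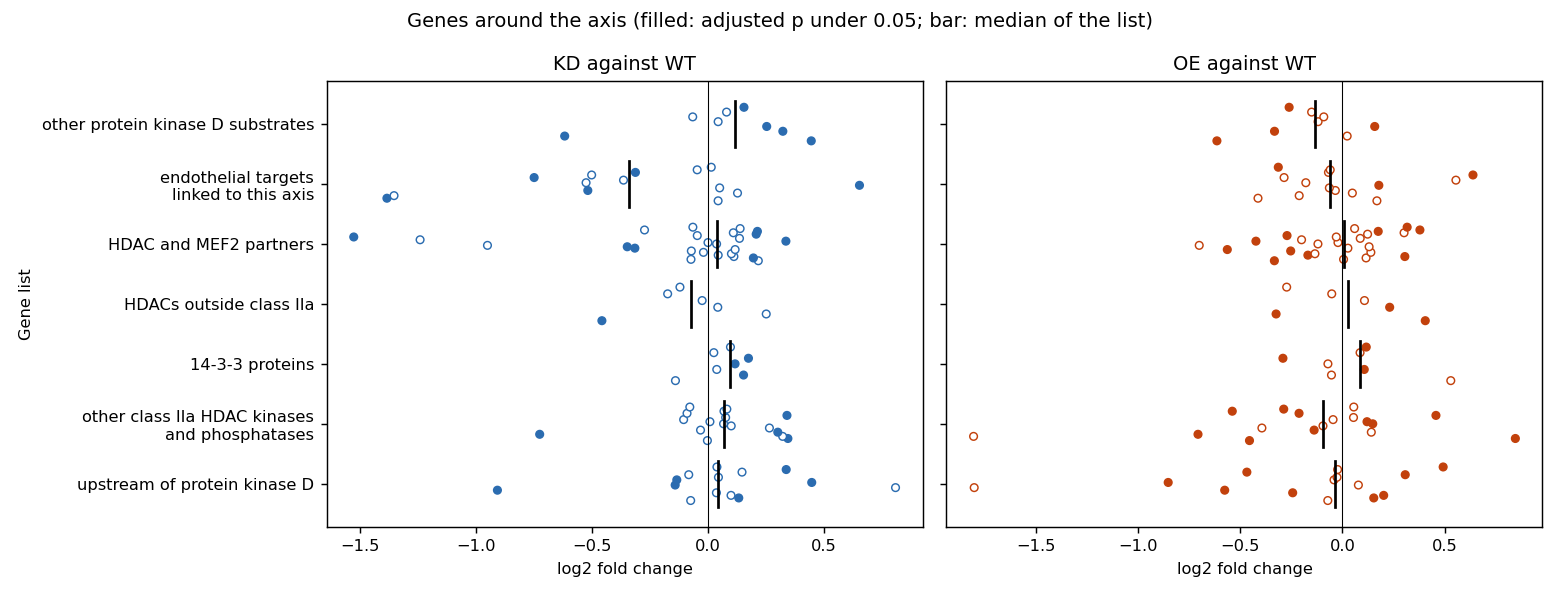
Log2 fold change of each tested gene of the lists around the relay, in KD and in OE against WT, one line per list; filled points have an adjusted p under 0.05 and bars mark list medians. Among the 7 lists with more than 1 tested gene, the endothelial targets have the lowest median in KD, at -0.34, and the other medians lie between -0.14 and 0.12. Weakly expressed genes such as Egr3, Mmp10 and Nos3 count in the -0.34.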

How the data were processed

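The authors deposited a table of raw read counts, one whole number per Ensembl gene and library. GRCm38 (mm10) is the build per the submitters' processing notes; the aligner, the counter, its use of strand and the annotation release are not given in the sources used here. GENCODE M21 on GRCm38 supplied positions and exon lengths for 55227 of the 55487 genes. Of 55774 rows, 455 repeated 168 genes with identical counts and were counted once. Rows with no gene name and sample columns left unused numbered 0.

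Genes were kept by filterByExpr, scaled by TMM and fitted over all 9 libraries with a term for group alone in edgeR 4.0.16 (R 4.3.3; quasi-likelihood, robust), with Benjamini-Hochberg adjustment over 16955 genes and a threshold of 0.05. Unless another tool is named, adjusted p values are from this fit. SEs come from SDs of log2 CPM (prior count 2). An exact permutation test of 3 against 3 cannot go below 0.1 and was not used. Alternatives were DESeq2 1.42.0 (its size factors and its test), limma-voom 3.58.1, library totals alone, other filters, only the compared groups, a replicate block, 20 Mb window medians subtracted, and each library left out. Higher genes made up 51.4% of those passing in KD and 46.6% in OE, but 35.8% and 31.6% with library totals alone. The fit was tested on simulated data first, with changes put into the KD libraries. Of the 16589 genes tested there, 99 had a change of log2 size 1 and 99 a change of 0.5. The fit recovered 79.8% and 53.5% of these. Among genes of at least 3 CPM these shares were 100% and 84.1%. Of the 143 calls in the simulation, 7.69% were unchanged genes. The real comparisons called 21.3% to 41.5% of genes, so these shares do not give the power or error rate of the real calls.

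Members and lists were chosen with earlier results of these data known. Named genes are the members, Zbtb46, each list's largest called rise and fall in KD and in OE, and the 3 genes most correlated with the member of smallest p; exceptions are stated. Some genes near Prkd1 are not reported here by name.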

Additional observations from a re-analysis of the deposited data

How the results depend on the processing

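In KD against WT the 4 member calls ranged from 3 to 6, and in the test among the 3 groups from 3 to 5. Calls over all genes ranged from 2473 to 4699 in KD, from 5129 to 6440 in OE and from 6019 to 8138 in OE against KD. In OE against WT the 2 member calls became 1 with 10 counts required in every library, and 1 to 2 with 1 library left out, 1 without OE replicate 1 or 3. The count stayed at 2 without WT replicate 3 and with window medians subtracted, but there Mef2c was called and Hdac5 was not. In OE against KD the 3 calls became 1 with library totals alone, without a filter beyond 1 count, or with window medians subtracted, and 1 to 4 with 1 library left out, 1 without KD replicate 1 or 2. Without OE replicate 3, Hdac7 was called there and Hdac5 was not. Replicate numbers did not pair the samples (same-numbered libraries correlated at -0.042 to 0.049 in their deviations from group means). The replicate block left the member calls at 4, 2 and 3 in KD, OE and OE against KD, and called 3574, 6111 and 6969 genes beside 3617, 6174 and 7031; under it Prkd3 in OE stood at 0.0014. Directions reversed only for member differences that did not pass. In OE against WT these were Prkd3, at 0.0014 with DESeq2 size factors and 0.0020 in the DESeq2 test, Hdac7 at 0.00014 in the DESeq2 test, and Mef2a at -0.022 with library totals. With window medians subtracted Mef2c reversed to 0.25 in OE against KD and Mef2d to 0.033 in KD. Leaving out 1 library moved Prkd3 between -0.11 and 0.043 in KD and between -0.055 and 0.088 in OE, Hdac7 between -0.032 and 0.029 in OE, Mef2a between -0.024 and 0.14 in OE, and Mef2d between -0.080 and 0.051 in KD, -0.11 and 0.016 in OE and -0.048 and 0.0034 in OE against KD. Apart from fewer genes or libraries entering a fit, the cause of these shifts was not tested.

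List counts moved by over 1.5 times most often in KD. With library totals alone, calls in KD went from 6 to 3 upstream of protein kinase D, 4 to 2 among deacetylase kinases and phosphatases, 3 to 0 among 14-3-3 genes and 7 to 2 among partners. Without KD replicate 2 or 3 the upstream list had 3 calls, the kinases and phosphatases 2 and the 14-3-3 genes 1; the kinases and phosphatases also had 2 without WT replicate 1, and partners had 4 without KD replicate 1 or 2 and 3 without WT replicate 1. The 1 call among other deacetylases became 2 or 3 in 8 alternatives, among them leaving out WT replicate 3, OE replicate 1 or OE replicate 3. In OE the 3 calls among 14-3-3 genes became 1 with library totals alone, without a filter beyond 1 count, with only the groups compared, and without KD replicate 2, OE replicate 2 or OE replicate 3. The 3 among endothelial targets became 1 with library totals alone or without WT replicate 1, and 5 with window medians subtracted. The 5 calls among endothelial targets in KD stayed at 5 in all 18 alternatives. Hdac9 was not tested.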
